A study of Fragaria x ananassa with 28 samples.

Results

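Malate and citrate metabolism in the strawberry receptacle was followed through the assembled transcripts whose Swiss-Prot description names malate dehydrogenase, citrate synthase, aconitate hydratase (aconitase), isocitrate dehydrogenase, phosphoenolpyruvate (PEP) carboxylase, PEP carboxykinase, NADP-dependent malic enzyme or an aluminum-activated malate transporter. These words matched 412 of 301219 transcripts, of which 130654 carry a description. Of the 412, 125 transcripts in 75 assembly components had 1 RPKM or more in at least 2 libraries and are the members described here. The other 287 summed to between 4.55 and 10.1 RPKM per library and were not tested. The unit, RPKM, divides the reads on a transcript by its length and by the counted reads of its library. Nearest to that limit by their second-highest library were an ATP-citrate synthase alpha chain (comp98178_c0_seq3, 0.982 RPKM) on the outer side and a PEP carboxylase 2 (comp135451_c0_seq1, 1.05 RPKM) on the inner side. Because the words are matched inside longer names, 26 of the 125 members belong to other activities: 17 to ATP-citrate synthase (ATP-citrate lyase, which splits citrate in the cytosol), 6 to 3-isopropylmalate dehydrogenase (an enzyme of leucine synthesis, not of malate or citrate use) and 3 to PEP carboxylase kinase (which phosphorylates PEP carboxylase). For these members the label does not hold as written, and they are kept apart below.

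The fruit were receptacles, the fleshy part, of the octaploid cultivar 'Toyonoka' (Fragaria × ananassa), injected through the pedicel with 100 µL of 1 µM abscisic acid (ABA), of 100 µM nordihydroguaiaretic acid (NDGA, described in the labels as a blocker of ABA synthesis) or of distilled water. The 7 groups were ABA-injected fruit at days 5 and 8, NDGA-injected fruit at days 5 and 8, and water-injected fruit at day 0 (2 weeks after flowering), day 5 and day 8. Each had 2 polyA RNA libraries, and RNA of 10 fruits per group was pooled. Whether the 2 libraries were made from different pools of fruit is not in the labels, so each p-value rests on the spread between libraries alone, and that spread may be technical.

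Citrate is the main organic acid of ripe strawberry and malate stands next to it. In plant cells PEP carboxylase turns PEP from glycolysis into oxaloacetate, malate dehydrogenase reduces oxaloacetate to malate, and citrate synthase joins oxaloacetate to acetyl-CoA. Aconitase and isocitrate dehydrogenase carry citrate onward to 2-oxoglutarate, NADP-malic enzyme decarboxylates malate to pyruvate, and PEP carboxykinase returns oxaloacetate to PEP, the first step out of organic acids towards sugar. Most of the acid is held in the vacuole, which proton pumps acidify and which malate channels and carriers fill.

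The libraries held 7356752 to 9035037 counted reads, which is 13.4% to 15.1% of the clean reads listed for them. The other reads are not behind the values used here. With these counts, 1 read on a transcript of 1 kb was worth 0.111 to 0.136 RPKM. Each library correlated best with the other library of its group. The other tissues that such samples can hold moved with time and treatment. The 69 tested seed storage and oil body transcripts, which stand for achenes, summed to 139.8 to 156.3 RPKM (ABA) and 149 to 169.7 RPKM (NDGA) at day 5, against 5060 to 5181 RPKM (water), and to 75.7 to 87.4 RPKM (ABA) and 138.2 to 146.8 RPKM (NDGA) at day 8, against 231.9 to 232.1 RPKM (water). In water at day 0 they summed to 19769 to 21825 RPKM. Listed at 0 in both libraries of a group were 2 of them in water at day 0, 8 at day 5 and 28 at day 8, and 22 to 29 in the groups given ABA or NDGA. The 102 transcripts of photosystem and chlorophyll-binding proteins (green tissue) summed to 881 to 899 RPKM with ABA and 2987 to 3012 RPKM with NDGA at day 5, against 1427 to 1494 RPKM in water, and to 785 to 800 RPKM with ABA and 2058 to 2202 RPKM with NDGA at day 8, against 2935 to 3091 RPKM in water. In water at day 0 they summed to 1604 to 1677 RPKM. The 111 xylem transcripts summed to 1868 to 1903 RPKM in water at day 0 and to 786 to 1576 RPKM in the other groups. The part of these tissues in the results below was not tested, and in such bulk samples fewer cells of a type and less RNA per cell cannot be told apart.

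Across the 14 libraries the members averaged 0.309 to 402 RPKM, with a median of 3.82 RPKM. The 15 members at 100 RPKM or more held 77.7% of the members' summed RPKM, and 84 of the 125 averaged below 10 RPKM. Among these 15 were 3 transcripts of NADP-malic enzyme, 3 of aconitase, 2 each of malate dehydrogenase, isocitrate dehydrogenase, citrate synthase and ATP-citrate synthase, and 1 of PEP carboxylase. Described by proteins of Fragaria itself were 4 members, by proteins of Arabidopsis 60. In 30 components 2 or more forms were members, up to 5 in 1 component. In an octaploid these can be alleles, subgenome copies or splice variants, and since they may share reads, the value of any single form is uncertain.

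Each change was tested by limma in 1 fit of the 14 libraries, on log2(RPKM + 1), with Benjamini-Hochberg adjustment over 99136 transcripts, and "called" means an adjusted p below 0.05. A log2 change on this scale understates the change of low transcripts. In water-injected fruit 7 members rose and 22 fell at day 5 against day 0 (23.2% of 125, beside 12.9% of all transcripts tested and 19% of the described ones), 4 rose and 9 fell at day 8 against day 5 (10.4%, beside 4.67% and 6.65%), and 4 rose and 17 fell at day 8 against day 0 (16.8%, beside 10.6% and 16.3%). With ABA 3 rose at day 5 (2.40%, beside 2.16% and 3.63%), and 13 rose and 15 fell at day 8 (22.4%, beside 13.3% and 18%). With NDGA 1 fell at day 5 (0.80%, beside 2.03% and 3.35%), and 2 rose and 2 fell at day 8 (3.20%, beside 2.18% and 3.27%). By direction, the shares of all transcripts higher and lower were 4.98% and 7.90% in water at day 5 against day 0, 2.89% and 1.78% at day 8 against day 5, 4.87% and 5.68% at day 8 against day 0, 1.21% and 0.956% with ABA at day 5, 4.30% and 8.98% with ABA at day 8, 1.23% and 0.802% with NDGA at day 5, and 0.705% and 1.48% with NDGA at day 8. In ABA at day 5 and in both NDGA comparisons, and in water at day 8 against day 0 beside the described transcripts, the members' share lay near or under the background. All members are described transcripts. Beside those, the shares in water at day 5 against day 0 (23.2%, beside 19%) and with ABA at day 8 (22.4%, beside 18%) were not far above either. These differences in share were not tested. The counts of 0 above, members lower with ABA and members higher with NDGA at day 5, stand beside 16 and 21 members with an unadjusted p below 0.05 in either direction and beside 2 and 4 calls by limma's voom on recovered reads. The change with ABA at day 8 differed from that at day 5 in 10 members, 5 upwards and 5 downwards, beside 3.69% of all transcripts (5.52% of the described, 1.15% upwards and 2.54% downwards), and that with NDGA in 6, 3 each way, beside 2.65% (3.86%, 0.857% and 1.79%). In all, 50 members were called in at least 1 of the 7 comparisons and 75 in none. Comparisons of ABA and of NDGA at a day share the water libraries of that day, and the water days share their libraries with each other.

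**Figure D1:**
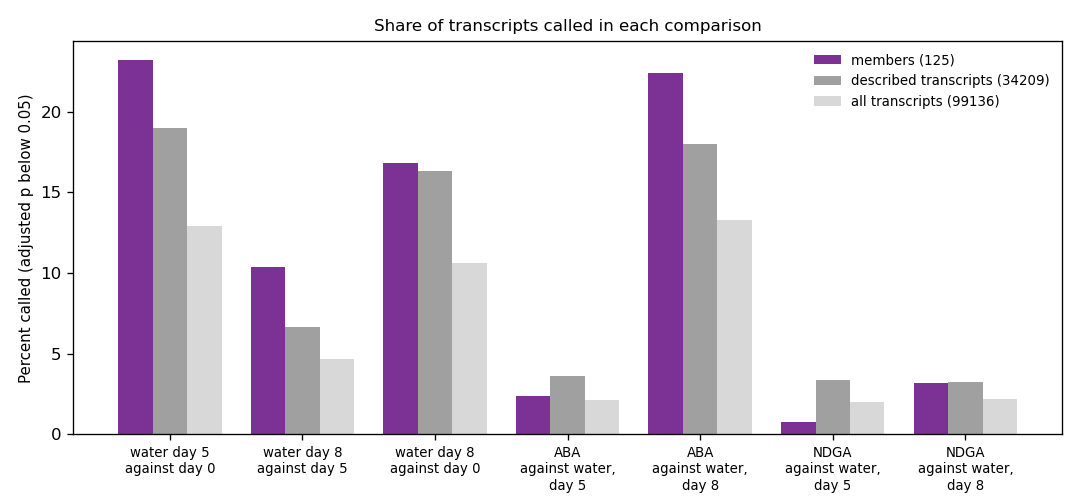
Percent of transcripts called (adjusted p below 0.05, limma) in each of 7 comparisons, for the 125 members, the 34209 described transcripts and all 99136 transcripts tested. The members' bars reach 23.2% in water at day 5 against day 0 and 22.4% with ABA at day 8. The described transcripts reach 19% and 18% there. With NDGA the members' bars stay at 3.20% or less.

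Single libraries moved several of these counts by more than 1.5 times. A fit without 1 library leaves 1 library in its group, and calls over all transcripts fell there as well. The calls also rest on the spread shared by all 14 libraries. Fitted on the 4 compared libraries alone, 2 members were called in water at day 5 against day 0, 2 at day 8 against day 0, 5 with ABA at day 8 and 0 in the other comparisons. Of all 99136 transcripts, such fits called 998, 823 and 1135 in the first 3 of these and 0 to 45 in the others. Called in water at day 5 against day 0 were 16 and 17 members, not 29, without the first and the second day 5 library, and at day 8 against day 0 11, not 21, without the first day 8 library. The 13 at day 8 against day 5 became 3 to 6 on leaving out any 1 of the 4 libraries, and the 28 with ABA at day 8 became 18 without the first water library. The 3 with ABA at day 5 became 1 without the first water library. The 1 with NDGA at day 5 became 0 without the first water or the second NDGA library, and the 4 with NDGA at day 8 became 0 without the first NDGA library and 2 and 1 without the first and second water library. The ABA libraries of day 8 also differed from the rest in scale. The median of all transcripts moved by -0.20 (log2) with ABA at day 8 and by -0.03 after median-ratio scaling, and the members' own median was -0.14. Under that scaling 18 members were higher and 8 lower with ABA at day 8, against 13 and 15 before it, so the balance of directions there depends on the scaling.

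Summed over its members, each class was held at a level of its own, and these sums carry no test. PEP carboxylase summed to 366 ± 15.4 RPKM at day 0, 220 ± 8.12 RPKM at day 5 and 172 ± 2.92 RPKM at day 8 in water (SD, n = 2 each), while NADP-malic enzyme summed to 704 ± 76.2, 1223 ± 11.4 and 849 ± 12.6 RPKM. PEP carboxykinase stood at 39.4 ± 1.89, 20.4 ± 3.03 and 16.8 ± 2.77 RPKM, and citrate synthase at 272 ± 2.65, 295 ± 12 and 339 ± 5.52 RPKM. Over the 6 water libraries malate dehydrogenase had 780 to 914 RPKM, isocitrate dehydrogenase 531 to 686 RPKM, aconitase 994 to 1085 RPKM and the malate channels 65.6 to 86.7 RPKM. The day 8 ABA sums of malate dehydrogenase (578 to 623 RPKM, against 781 to 838 in water), isocitrate dehydrogenase (422 to 461, against 602 to 686) and PEP carboxylase (132 to 135, against 170 to 174) lay below water, and that of PEP carboxykinase (34.4 to 36.4, against 14.8 to 18.7) lay above it. After median-ratio scaling these 4 directions held. The PEP carboxylase sums were then closer (157 to 159 with ABA, against 161 to 168 in water), as were those of malate dehydrogenase (688 to 736, against 754 to 795). NADP-malic enzyme had 861 to 897 with ABA, against 840 to 858 in water, before scaling and 1025 to 1060, against 812 to 814, after it. Aconitase had 1001 to 1030, against 1028 to 1032, before scaling and 1183 to 1227, against 976 to 997, after it. The sum of all members, 3919 to 3928 RPKM with ABA against 4448 to 4458 RPKM in water at day 8, was the other way round after that scaling (4642 to 4666 against 4220 to 4308).

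**Figure D2:**
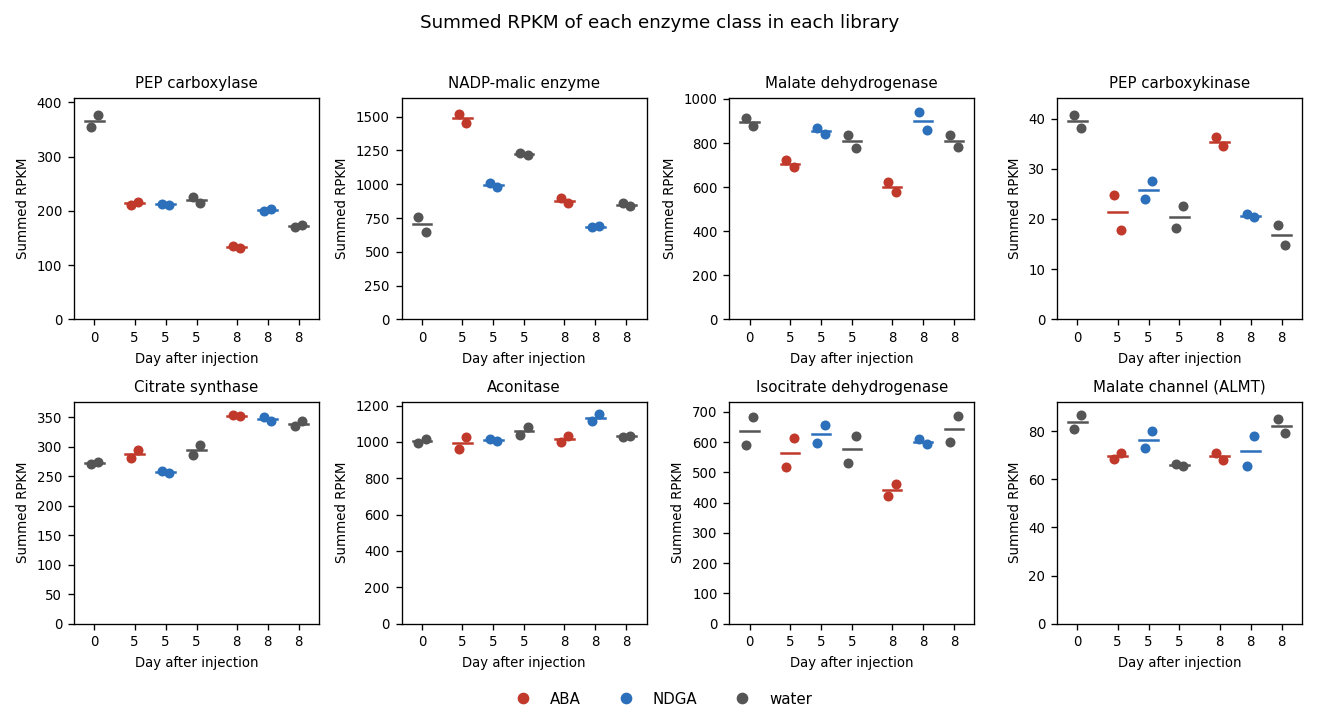
Summed RPKM of the members of each of 8 classes (vertical axes from 0) in each library, by day after injection; points are the 2 libraries of a group and lines their mean. PEP carboxylase steps down in water, with means of 366, 220 and 172 RPKM, NADP-malic enzyme is highest with ABA at day 5 (1455 and 1519 RPKM), and PEP carboxykinase with ABA at day 8 (34.4 and 36.4 RPKM) lies above the other groups of days 5 and 8.

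PEP carboxylase, the entry of carbon into malate, fell during the water time course. Of 12 members, 6 fell at day 5 and 5 at day 8 against day 0, and 2 fell at day 8 against day 5. The shares of all transcripts that fell there were 7.9%, 5.68% and 1.78%. Their median change at day 8 against day 0 was -0.59 (log2), beside 0.00 for all transcripts. The leading form, comp110507_c0_seq1 (3414 bases, described by a potato protein), stood in water at 223 and 224 RPKM at day 0, 134 and 132 RPKM at day 5 and 101 and 100 RPKM at day 8. No library of a later day reached one of an earlier day. The change was -0.74 ± 0.08 (log2, SE of the fit, adjusted p = 3.4e-05) at day 5 against day 0 and -1.15 ± 0.08 (adjusted p = 6.0e-07) at day 8 against day 0. The step from day 5 to day 8 (-0.40, adjusted p = 0.0093) was lost on leaving out any 1 of its 4 libraries (adjusted p 0.0552 to 0.0705).

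Other PEP carboxylases fell too. A PEP carboxylase 1 form, comp98423_c0_seq1, stood in water at 28.0 and 31.8 RPKM at day 0, 15.1 and 14.2 RPKM at day 5 and 6.63 and 6.56 RPKM at day 8, with changes of -0.98 ± 0.18 (adjusted p = 0.0026) at day 5 against day 0, -1.04 ± 0.18 (adjusted p = 0.0041) at day 8 against day 5 and -2.02 ± 0.18 (adjusted p = 6.4e-06) over both. These 3 calls were also made with any 1 library left out. A PEP carboxylase 3 form, comp110809_c0_seq2, averaged 30.5 RPKM at day 8, against 61.9 RPKM at day 0 (-0.99, adjusted p = 5.5e-04); it lies outside the naming rule and was chosen after its values were seen.

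The leading form comp110507_c0_seq1 had, with ABA at day 8, 74.9 and 75.2 RPKM, against 101 and 100 RPKM in water (-0.41 ± 0.08, adjusted p = 0.0033). This call was lost after median-ratio scaling (-0.11, adjusted p = 0.47). At day 5 it had 129 RPKM in both ABA libraries, against 134 and 132 RPKM in water (adjusted p = 0.92). With NDGA it had 117 and 119 RPKM at day 8 (0.23, adjusted p = 0.19).

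PEP carboxylase kinase in plants keeps PEP carboxylase less sensitive to inhibition by malate. It had 2 of its 3 members lower with ABA at day 8, beside 8.98% of all transcripts. Kinase 1, comp109782_c0_seq1, had 0.535 and 1.25 RPKM (6 and 14 reads) with ABA, against 4.61 and 3.01 RPKM (53 and 35 reads) in water at day 8. Both ABA libraries lie below every other library of the series for this transcript. The change was -1.35 ± 0.27 (adjusted p = 0.0050), and it was lost without the first water library (adjusted p = 0.059) or the first ABA library (0.057). Kinase 2, comp55056_c0_seq1, had 1.92 and 0 RPKM (5 and 0 reads) with ABA, against 9.73 and 7.03 RPKM (26 and 19 reads) in water (adjusted p = 0.0041, and 0.053 without the second ABA library). In water kinase 1 stood at 8.60 and 7.77 RPKM at day 0, 9.41 and 10.6 RPKM at day 5 and 4.61 and 3.01 RPKM at day 8. It was lower at day 8 than at day 5 (-1.21, adjusted p = 0.022) and than at day 0 (-0.95, adjusted p = 0.042). The first of these calls was lost without either day 5 library or the second day 8 library (0.091 to 0.18) and the second on leaving out any 1 library (0.051 to 0.25).

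Malate dehydrogenase forms of different compartments differed in which comparisons called them. The mitochondrial form, comp107114_c0_seq3, the most abundant malate dehydrogenase and described by a Fragaria protein, had 308 to 450 RPKM in all 14 libraries and was called in no comparison. Its smallest adjusted p over the 7 comparisons was 0.21, with NDGA at day 8 (450 and 431 RPKM, against 389 and 336 RPKM in water).

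A cytosolic form, comp104763_c0_seq1, was lower with ABA at day 8. It had 168 and 165 RPKM with ABA, against 301 RPKM in both water libraries (-0.85 ± 0.08, adjusted p = 1.5e-05), and at day 5 it had 222 and 211 RPKM with ABA against 249 and 261 RPKM in water (-0.23, adjusted p = 0.23). The ABA libraries of day 8 lie below all other libraries, and the call was made under median-ratio scaling and with any 1 library left out. A second cytosolic transcript, comp104920_c0_seq4, averaged 58.7 RPKM with ABA, against 89.5 RPKM in water (-0.60, adjusted p = 0.0032, and 0.11 after median-ratio scaling), and was chosen after its values were seen. In water the first form stood at 337 and 336 RPKM at day 0, 249 and 261 RPKM at day 5 and 301 RPKM in both libraries at day 8. It was lower at day 5 than at day 0 (-0.40, adjusted p = 0.0064, and 0.060 without the first day 5 library). A low cytosolic form, comp99956_c0_seq1, stood in water at 2.27 and 3.86, at 5.89 and 7.65 and at 1.79 and 1.5 RPKM at days 0, 5 and 8. Its fall from day 5 (-1.55, adjusted p = 0.021) was lost on leaving out any 1 of the 4 libraries (0.073 to 0.16).

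The plastid NADP-dependent form, comp110991_c0_seq1, part of the shuttle that exports reducing power from chloroplasts as malate, was higher with ABA at day 5 and lower with ABA at day 8. At day 5 it had 23.5 and 19.8 RPKM with ABA and 10.8 and 12.6 RPKM with NDGA, against 7.69 and 6.76 RPKM in water. At day 8 it had 4.52 and 6.13 RPKM with ABA and 10.8 and 9.80 RPKM with NDGA, against 12.6 and 15.2 RPKM in water. The groups do not overlap with ABA at either day. The ABA change was 1.46 ± 0.20 (adjusted p = 0.0012) at day 5 and -1.25 ± 0.20 (adjusted p = 9.9e-04) at day 8, and the difference between both, -2.70 ± 0.28, was itself called (adjusted p = 1.0e-04). All 3 were called with any 1 library left out and under median-ratio scaling. In water it stood at 27.3 and 23.7 RPKM at day 0 and fell by 1.69 (adjusted p = 8.9e-05) at day 5. Its day 8 level was above day 5 (0.86, adjusted p = 0.026) and below day 0 (-0.83, adjusted p = 0.017). The first was lost on leaving out any 1 library (0.063 to 0.19), the second without the first library of day 0 or of day 8 (0.10 and 0.13). The green tissue sums given above were below water with ABA at both days, above water with NDGA at day 5 and below it at day 8, and in water lower at day 5 than at day 0 and higher at day 8 than at either earlier day. They run opposite to this transcript with ABA at day 5 and in water at day 8 against day 0, and in its direction in the other 5 comparisons. Their part in its values was not tested.

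Of the NAD-dependent chloroplast forms, comp102635_c0_seq7 stood in water at 17.5 and 21.4 RPKM at day 0, 6.62 and 7.78 RPKM at day 5 and 9.21 and 10.6 RPKM at day 8, and comp102635_c0_seq10 at 14.7 and 12.9, at 4.54 and 2.67 and at 7.07 and 6.27 RPKM. Both fell at day 5 against day 0, by 1.32 (adjusted p = 6.6e-04) and by 1.71 (adjusted p = 5.4e-04). They come from 1 component, whose summed forms, undescribed ones included, fell by 0.96 (adjusted p = 0.0022). At day 8 against day 0 the changes were -0.90 (adjusted p = 0.010) and -0.95 (adjusted p = 0.029). At day 8 the call of comp102635_c0_seq7 was lost without the second day 0 library or the first day 8 library (0.077 and 0.080), and the call of comp102635_c0_seq10 on leaving out any 1 library (0.079 to 0.14).

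**Figure D3:**
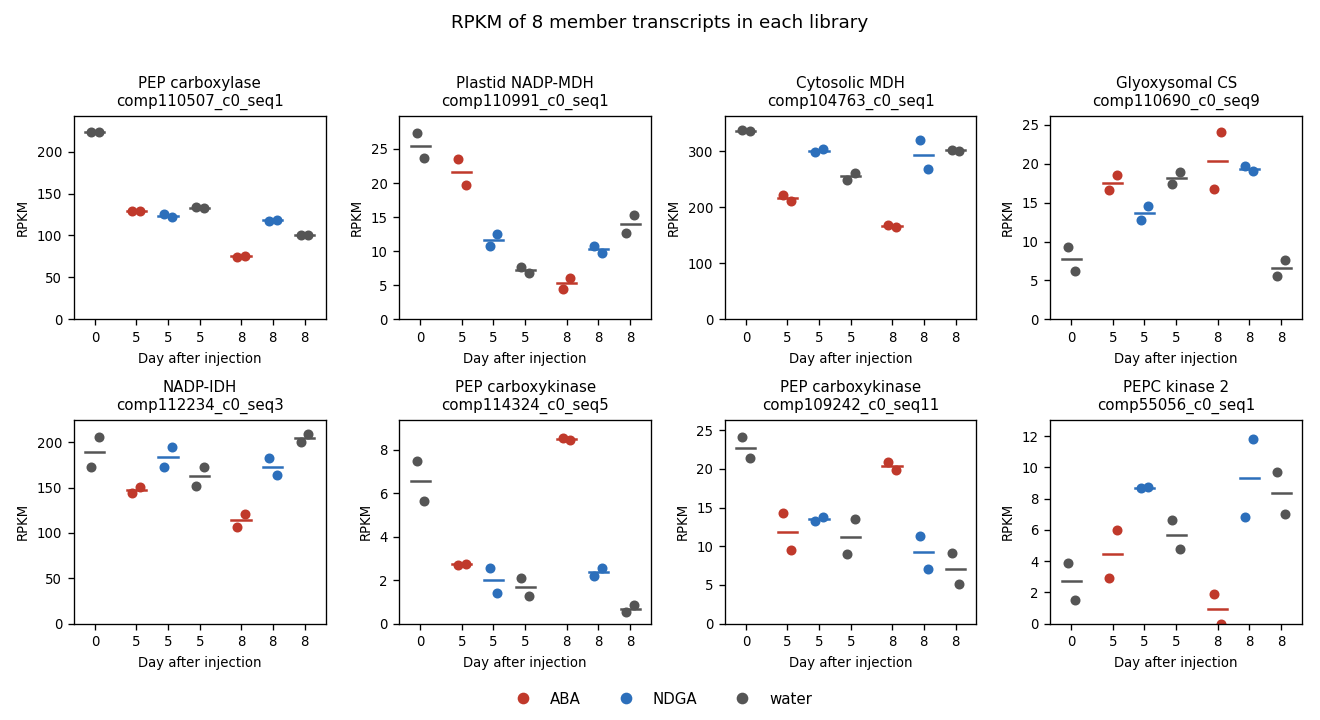
RPKM of 8 member transcripts (vertical axes from 0) in each library by day after injection; points are libraries, lines their mean, MDH is malate dehydrogenase, CS citrate synthase and IDH isocitrate dehydrogenase. The plastid NADP-MDH is above water with ABA at day 5 (23.5 and 19.8 RPKM against 7.69 and 6.76) and below it at day 8, while both PEP carboxykinase transcripts with ABA at day 8 lie above their water libraries.

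Citrate synthase of the mitochondrion, the first step of citrate formation, was steady with a slight rise in water. The 2 leading forms are both described by a Fragaria protein. comp108502_c0_seq1 stood in water at 162 and 158 RPKM at day 0, 162 and 170 RPKM at day 5 and 190 and 201 RPKM at day 8 (0.29 ± 0.08 at day 8 against day 0, adjusted p = 0.026). comp110499_c0_seq1 stood at 88.0 and 95.0, at 97.6 and 98.7 and at 126 and 117 RPKM (0.41 ± 0.09, adjusted p = 0.0099). The first call was lost on leaving out any 1 library (0.055 to 0.15) and after median-ratio or quantile scaling (0.088 and 0.084), the second without the first library of day 0 or day 8 (0.053 and 0.086). Both were near water with ABA at day 8, at 203 and 198 RPKM against 190 and 201 RPKM, and at 117 and 118 RPKM against 126 and 117 RPKM (adjusted p = 0.83 and 0.79). This holds before scaling. After median-ratio scaling comp108502_c0_seq1 was higher with ABA by 0.34 (adjusted p = 0.013) and comp110499_c0_seq1 by 0.26 (adjusted p = 0.11), and the class summed to 418 RPKM in both ABA libraries, against 318 to 331 RPKM in water.

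A glyoxysomal citrate synthase form, comp110690_c0_seq9, which belongs to the pathway that turns fatty acids into organic acids in seeds, had another course. In water it stood at 9.35 and 6.25 RPKM at day 0, 17.3 and 18.9 RPKM at day 5 and 5.6 and 7.6 RPKM at day 8. At day 8 it had 16.8 and 24.0 RPKM with ABA and 19.7 and 19.0 RPKM with NDGA. Both treated groups lie above the water libraries of day 8 and at the level that water had at day 5. The change was 1.48 ± 0.23 (adjusted p = 6.6e-04) with ABA and 1.43 ± 0.23 (adjusted p = 0.0042) with NDGA, and at day 5 it was -0.04 (adjusted p = 1.0) and -0.38 (adjusted p = 0.55). The call with NDGA was lost without the first water or the first NDGA library (0.059 and 0.051) and when all forms of its component were summed (0.64, adjusted p = 0.051), while the sum with ABA rose by 0.66 (adjusted p = 0.011). In water the rise at day 5 (1.14, adjusted p = 0.0045) was lost without the second day 0 library (0.055) and the fall from day 5 to day 8 (-1.34, adjusted p = 0.0035) was also called with any 1 library left out. The 4 tested transcripts of the glyoxylate cycle itself (isocitrate lyase and malate synthase) were all lower in water at days 5 and 8 than at day 0. The malate synthase comp92027_c0_seq1 had 17.5 and 19.3 RPKM at day 0, 0.882 and 0.950 RPKM at day 5 and was listed at 0 in the other 10 libraries.

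Aconitase, which turns citrate into isocitrate, summed to 961 to 1153 RPKM over the 14 libraries in its 10 members before scaling. After median-ratio scaling the class summed to 1183 to 1227 RPKM with ABA at day 8, against 976 to 997 RPKM in water. The leading mitochondrial form, comp106489_c1_seq1, stood at 344 and 328 RPKM at day 0, 398 and 387 RPKM at day 5 and 364 and 358 RPKM at day 8 in water. Its rise at day 5 (0.22 ± 0.06, adjusted p = 0.031) was lost without either day 5 library or the second day 0 library (0.090 to 0.16) and after median-ratio or quantile scaling (0.061 and 0.34). At day 8 it had 377 and 375 RPKM with ABA and 406 and 422 RPKM with NDGA, against 364 and 358 RPKM in water (adjusted p = 0.62 and 0.15). After median-ratio scaling it was higher with ABA at day 8 by 0.37 (adjusted p = 0.0017).

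Isocitrate dehydrogenase, the step from isocitrate to 2-oxoglutarate, had 3 of 17 members lower and 1 higher with ABA at day 8. Of all transcripts, 8.98% were lower and 4.3% higher there. The NADP-dependent component comp112234_c0, which holds the 2 most abundant forms, fell by 0.68 (adjusted p = 0.0039) when its forms were summed without median-ratio scaling. Its form comp112234_c0_seq3 had 107 and 121 RPKM with ABA, against 200 and 209 RPKM in water (-0.84 ± 0.11, adjusted p = 2.1e-04). Before scaling these values lay below all other libraries. After median-ratio scaling its change was -0.54 (adjusted p = 0.010). At day 5 it had 144 and 151 RPKM with ABA, against 152 and 173 RPKM in water (adjusted p = 0.71). The form comp112234_c0_seq1 had 155 and 181 RPKM with ABA, against 213 and 282 RPKM in water at day 8 (-0.55 ± 0.18, adjusted p = 0.064). After median-ratio scaling its change was -0.24 (adjusted p = 0.49). It was higher in the second library than in the first in all 7 groups. A low NADP-dependent form, comp105727_c0_seq1, was listed at 0 in both ABA libraries of day 8, against 5.38 and 2.78 RPKM (21 and 11 reads) in water (adjusted p = 0.0078, and 0.085 without the first water library). The NAD-dependent catalytic subunit comp107097_c0_seq3 of the mitochondrial enzyme averaged 19.2 RPKM with ABA, against 32.2 RPKM in water (-0.72, adjusted p = 0.0069, and 0.10 after median-ratio scaling), and the form comp113114_c0_seq4 of a plastid NADP-dependent enzyme 12.7 RPKM, against 6.70 RPKM (0.83, adjusted p = 0.020). Both were chosen after their values were seen.

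ATP-citrate synthase, which makes cytosolic acetyl-CoA from citrate, had 3 of 17 members higher and 3 lower with ABA at day 8. The shares of all transcripts were 4.3% and 8.98%. After median-ratio scaling the 3 lower calls were lost (adjusted p = 0.15, 0.53 and 0.86) and the 3 higher ones were kept. The alpha chain 2 form comp108073_c2_seq10 was then called higher as well (1.075, adjusted p = 0.028). The balance of directions in this class thus depends on the scaling. The abundant alpha chain 3, comp112004_c0_seq2, had 109 and 117 RPKM with ABA, against 162 and 176 RPKM in water (-0.58 ± 0.10, adjusted p = 0.0020), a call lost after median-ratio scaling (-0.27, adjusted p = 0.15). The members that rose were low. The largest rise was that of an alpha chain 2 form outside the naming rule, comp98178_c0_seq6 (2.59, adjusted p = 0.0026, and 0.0015 after median-ratio scaling). An alpha chain 1 form, comp108073_c2_seq17, had 2.23 and 2.51 RPKM with ABA, against 0.272 and 0.537 RPKM in water (adjusted p = 0.022, lost on leaving out any 1 library, 0.055 to 0.12). It had stood at 7.17 and 8.52 RPKM at day 0 and fell by 1.90 (adjusted p = 0.0018) at day 5 and by 2.66 (adjusted p = 1.3e-04) at day 8 against day 0. The beta chain 2 form comp108453_c0_seq2 had 7.23 and 7.47 RPKM with ABA and 13.1 and 11.2 RPKM with NDGA at day 8, against 5.11 and 2.85 RPKM in water (0.78, adjusted p = 0.045, and 1.43, adjusted p = 0.0057). The ABA call was lost without the second water library or either ABA library (0.14 to 0.31) and the NDGA call without the second water or the first NDGA library (0.066 and 0.077). In water this form was lower at day 8 than at day 5 (-1.07, adjusted p = 0.020), a call lost without either day 5 library or the second day 8 library (0.11 to 0.17). At day 5 the alpha chain 2 form comp108073_c2_seq10 had 13.2 and 15.3 RPKM with ABA, against 3.20 and 3.76 RPKM in water (1.77, adjusted p = 0.0044, and 0.053 and 0.058 without the first water or the second ABA library).

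The leading 3-isopropylmalate dehydrogenase, comp112885_c0_seq3, had 15.1 to 37.7 RPKM over all libraries and was called in no comparison, with adjusted p of 0.34 or more.

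NADP-malic enzyme, which removes malate, had a larger sum than the other classes at day 5 in water and with ABA, and its components differed in course. The most abundant member of all, comp99633_c0_seq2 (described by a poplar protein without a plastid label), stood in water at 216 and 223 RPKM at day 0, 573 and 569 RPKM at day 5 and 347 and 361 RPKM at day 8. The rise at day 5 was 1.37 ± 0.07 (adjusted p = 2.0e-08), the fall from day 5 to day 8 -0.69 ± 0.07 (adjusted p = 3.5e-05), and day 8 stayed above day 0 (0.68, adjusted p = 1.4e-05). All 3 calls were also made with any 1 library left out. With NDGA it had 442 and 420 RPKM at day 5 and 260 and 278 RPKM at day 8, against 573 and 569 RPKM and 347 and 361 RPKM in water, and the groups do not overlap at either day. The change was -0.40 ± 0.07 at both days (adjusted p = 0.0048 and 0.0061). It was lost at day 5 without the first water or the second NDGA library (0.056 and 0.078) and at day 8 without the second water or the first NDGA library (0.070 and 0.089). With ABA it had 626 and 647 RPKM at day 5 and 326 and 343 RPKM at day 8 (0.16, adjusted p = 0.33, and -0.08, adjusted p = 0.48).

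A second component showed the same rise and fall in water. comp104072_c1_seq1 stood at 149 and 127 RPKM at day 0, 215 and 231 RPKM at day 5 and 176 and 169 RPKM at day 8, and rose by 0.69 at day 5 against day 0 (adjusted p = 1.7e-04). With ABA it had 297 and 286 RPKM at day 5, against 215 and 231 RPKM in water (0.39 ± 0.09, adjusted p = 0.041), and 148 and 141 RPKM at day 8, against 176 and 169 RPKM (-0.25, adjusted p = 0.081). The ABA call at day 5 was lost on leaving out any 1 library (0.12 to 0.25), as was the fall in water at day 8 against day 5 (-0.37, adjusted p = 0.032, and 0.087 to 0.21). The rise at day 8 against day 0 (0.33, adjusted p = 0.033) was lost without the second day 0 library or either day 8 library (0.094 to 0.20) and after median-ratio scaling (0.064). A form described by a grape protein, comp96256_c0_seq2, had 132 and 117 RPKM at day 5, against 59.7 and 44.3 RPKM at day 0 (1.26 ± 0.19, adjusted p = 6.6e-04).

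A plastid component of NADP-malic enzyme, comp118237_c0, was lower in water after day 0. The 3 members of the class that fell in water at day 5 and the 3 that fell at day 8 against day 0 were forms of this component. Among all transcripts 7.9% and 5.68% fell in these comparisons. The other members with a plastid description (comp118237_c0_seq4, comp114058_c0_seq3, comp114058_c0_seq4 and comp99633_c0_seq1, averaging 1.11 to 10.9 RPKM) were called in no water comparison. The form comp118237_c0_seq6 stood in water at 62.2 and 54.1 RPKM at day 0, 31.6 and 33.6 RPKM at day 5 and 26.9 and 25.9 RPKM at day 8. It fell by 0.81 (adjusted p = 0.0017) at day 5 and by 1.10 (adjusted p = 1.7e-04) at day 8 against day 0. At day 8 with ABA it had 71.9 and 75.9 RPKM, with NDGA 29.5 and 27.5 RPKM, against 26.9 and 25.9 RPKM in water. The ABA libraries lie above every other library. The ABA change was 1.45 ± 0.14 (adjusted p = 1.4e-05) at day 8 and 0.08 (adjusted p = 0.90) at day 5, and the difference between days was called (1.37 ± 0.20, adjusted p = 0.0015). The forms comp118237_c0_seq7 (55.0 and 55.7 RPKM with ABA, against 27.1 and 24.7 RPKM in water at day 8) and comp118237_c0_seq4 (23.5 and 23.3 RPKM, against 7.56 and 7.47 RPKM) rose by 1.07 (adjusted p = 0.0014) and 1.52 (adjusted p = 0.0028). All 3 forms were called at day 8 with ABA with any 1 library left out. The component also holds an undescribed form, comp118237_c0_seq3, which had 96.7 and 90.8 RPKM with ABA, against 30.03 and 28.7 RPKM in water at day 8. With all its forms summed, this one included, the component rose by 1.40 ± 0.10 with ABA at day 8 (adjusted p = 3.4e-07). The sum was also higher with ABA at day 5 (0.51, adjusted p = 0.011) and lower with NDGA at day 5 (-0.45, adjusted p = 0.029). No member of the component was called in these comparisons. The undescribed comp118237_c0_seq3 had 79.6 and 76.6 RPKM with ABA and 30.1 and 32.2 RPKM with NDGA at day 5. In water it had 62.7 and 37.7 RPKM there. Its part in these sums was not tested. Of the 102 green tissue transcripts, 59 were lower and 4 higher with ABA at day 8, beside 8.98% and 4.3% of all transcripts. Their part in the values of this component was not tested.

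The largest ABA change among the named members was that of comp104072_c0_seq4, an NADP-malic enzyme form described by a bean protein (2260 bases). It had 22.0 and 19.6 RPKM (413 and 367 reads) with ABA at day 8, against 2.08 and 2.36 RPKM (40 and 46 reads) in water, and 2.91 and 2.98 RPKM with NDGA. In the other 8 libraries it had 0.962 to 4.12 RPKM. The change was 2.76 ± 0.27 (adjusted p = 1.3e-05) at day 8 and 0.51 (adjusted p = 0.48) at day 5, with a called difference between days (2.25 ± 0.38, adjusted p = 0.0041). Both were called under every setting tried. Another form of the component, comp104072_c0_seq1, averaged 6.82 RPKM with ABA, against 0.611 RPKM in water (2.38, adjusted p = 0.0023), and lies outside the naming rule. In all, 6 of 18 NADP-malic enzyme members were higher with ABA at day 8, from 2 components, under the main and both other scalings. In the main fit 4.3% of all transcripts were higher.

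**Figure D4:**
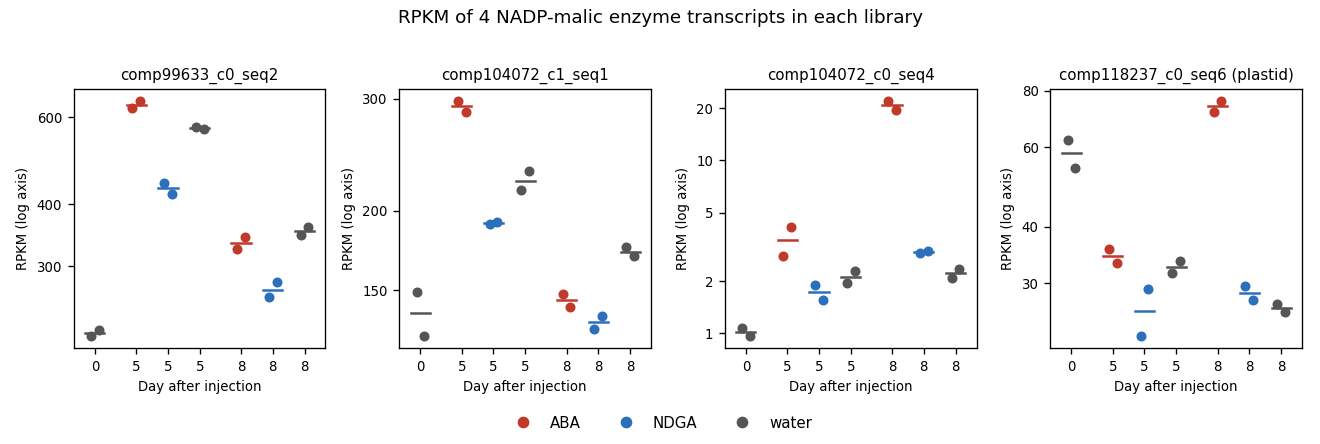
RPKM (log axes) of 4 NADP-malic enzyme transcripts in each library by day after injection; points are libraries and lines their mean. The 2 transcripts on the left are highest at day 5 and the 2 on the right with ABA at day 8, where comp104072_c0_seq4 has 22.0 and 19.6 RPKM against 2.08 and 2.36 RPKM in water.

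PEP carboxykinase, which leads from oxaloacetate back to PEP, had 2 of 8 members lower in water at day 5 and 2 at day 8 against day 0. The shares of all transcripts lower there were 7.9% and 5.68%. With ABA at day 8, 2 members were higher and 1 lower, beside 4.3% and 8.98% of all transcripts. comp109242_c0_seq11 stood in water at 24.1 and 21.4 RPKM at day 0, 9.02 and 13.5 RPKM at day 5 and 9.16 and 5.06 RPKM at day 8 (-1.59 ± 0.29 at day 8 against day 0, adjusted p = 0.0028). With ABA at day 8 it had 20.9 and 19.9 RPKM (1.45 ± 0.29, adjusted p = 0.0046, and 0.062 without the second water library), near its day 0 level. Its fall at day 5 (-0.98, adjusted p = 0.042) was lost on leaving out any 1 library (0.051 to 0.26). The lower comp114324_c0_seq5 stood in water at 7.51 and 5.64, at 2.11 and 1.29 and at 0.514 and 0.847 RPKM at days 0, 5 and 8, and fell by 2.17 (adjusted p = 3.7e-04) at day 8 against day 0. With ABA at day 8 it had 8.54 and 8.44 RPKM (97 and 96 reads) and with NDGA 2.22 and 2.54 RPKM, against 0.514 and 0.847 RPKM (6 and 10 reads) in water. The ABA change was 2.50 ± 0.30 (adjusted p = 1.0e-04) and the NDGA change 1.01 (adjusted p = 0.13). At day 5 it had 2.70 and 2.76 RPKM with ABA, against 2.11 and 1.29 RPKM in water (0.48, adjusted p = 0.59). Its fall at day 5 against day 0 (-1.49, adjusted p = 0.0052) was lost without the second day 5 library (0.056). Another transcript, comp85581_c0_seq1, was lower with ABA at day 8, with a mean of 1.17 RPKM against 4.03 RPKM in water (-1.21, adjusted p = 0.024, and 0.055 after median-ratio scaling).

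Some Arabidopsis members of the ALMT family of malate channels carry malate into the vacuole. In water 2 of 10 ALMT members were lower at day 5 against day 0, beside 7.9% of all transcripts. At day 8, 1 was higher than at day 5 (beside 2.89%) and 1 lower than at day 0 (beside 5.68%). The leading one, described by Arabidopsis ALMT4 (comp113062_c0_seq1), had 47.5 to 59.4 RPKM in all 14 libraries, with adjusted p of 0.33 or more in the 7 comparisons. An ALMT9 form, comp106901_c0_seq6, stood in water at 10.6 and 4.64 RPKM at day 0, 2.83 and 2.37 RPKM at day 5 and 8.51 and 9.32 RPKM at day 8. Its fall at day 5 (-1.17, adjusted p = 0.025) was lost without the first day 0 library or either day 5 library (0.078 to 0.19), and its rise from day 5 to day 8 (1.46, adjusted p = 0.016) on leaving out any 1 library (0.070 to 0.12). The sum over its component is no measure of this channel, because the component also holds comp106901_c0_seq13, described by long chain acyl-CoA synthetase 2, an enzyme of fatty acid activation. That form had 14.8 and 13.5 RPKM at day 5 and 113 and 89.4 RPKM at day 8 in water, and the sum was 0.18 at day 5 against day 0 (adjusted p = 0.70) and 2.59 at day 8 against day 5 (adjusted p = 1.3e-05). A form described by ALMT1, comp32448_c0_seq1, averaged 4.28 RPKM at day 0, was listed at 0 in both libraries of day 5 and averaged 0.187 RPKM at day 8 in water (adjusted p = 9.0e-04 and 0.0021 against day 0); it lies outside the naming rule.

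**Figure D5:**
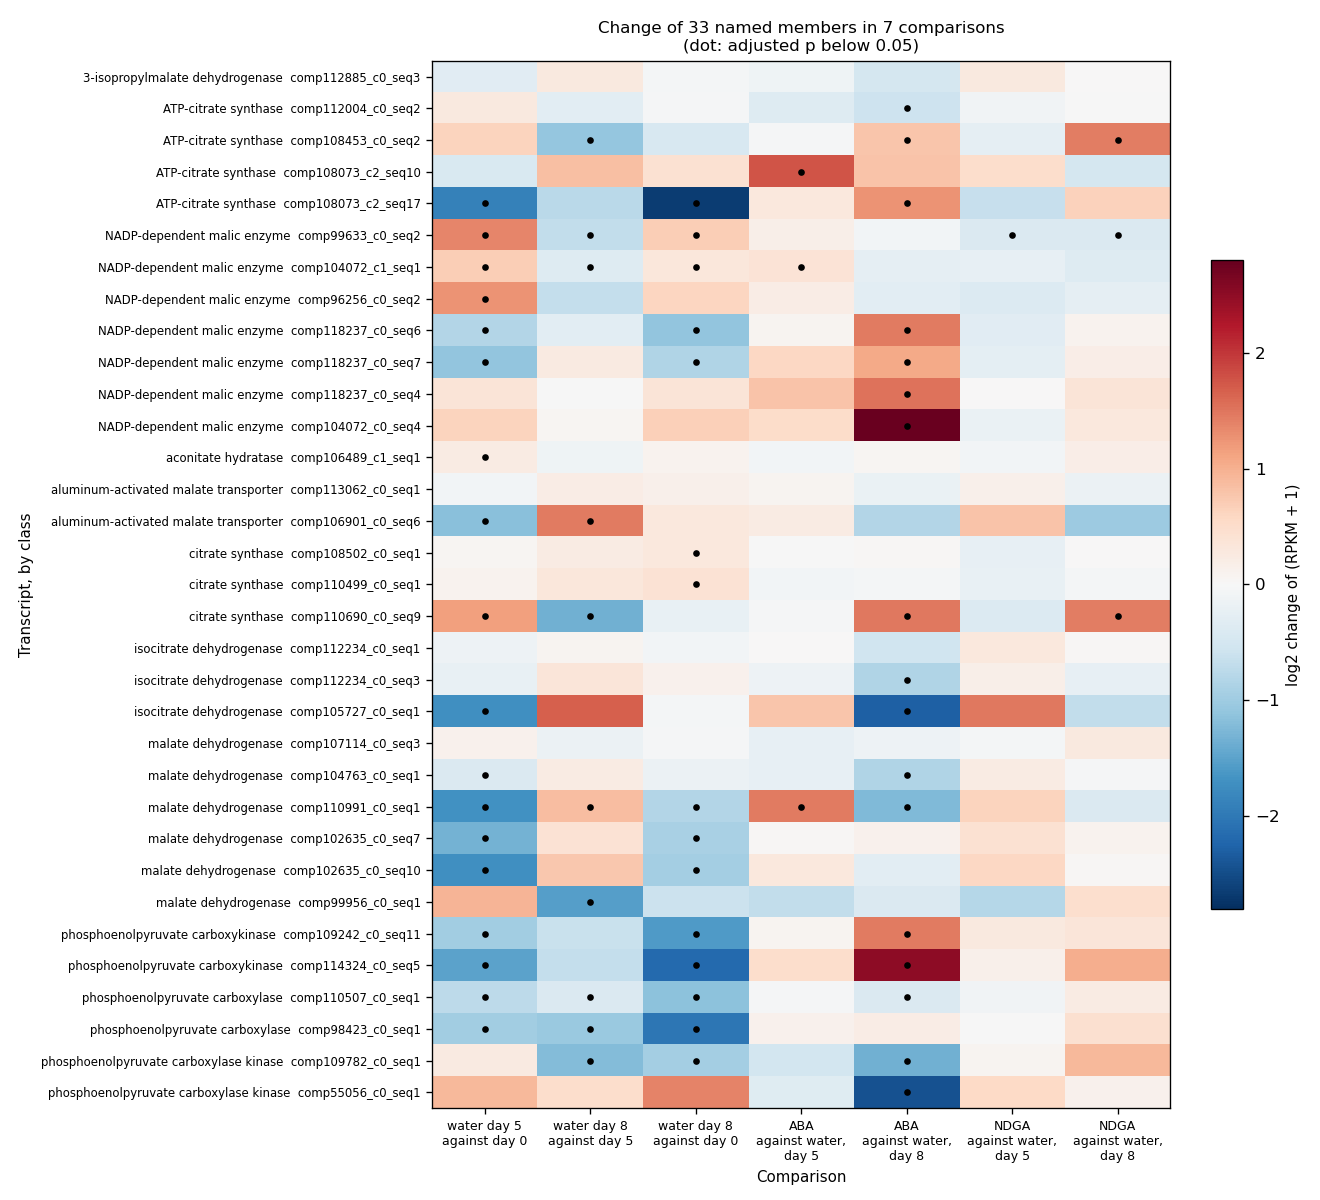
log2 change of (RPKM + 1) of the 33 named members (rows, by class) in 7 comparisons (columns); red is higher in the group named first and blue lower, and a dot marks an adjusted p below 0.05. The columns of water at day 5 and day 8 against day 0 hold most of the blue cells with dots, for PEP carboxylase, PEP carboxykinase and chloroplast malate dehydrogenase, and the ABA column of day 8 holds the largest rise (2.76).

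The vacuolar proton pumps that drive acid storage are the proton pyrophosphatase and the proton ATPase. Of 15 pyrophosphatase transcripts, 6 rose and 2 fell in water at day 8 against day 0. That is 53.3%, beside 10.6% of all and 16.3% of the described transcripts. With ABA at day 5, 3 rose and 2 fell (33.3%, beside 2.16% and 3.63%). At day 8, 7 fell with ABA (46.7%, beside 13.3% and 18%) and 2 with NDGA (13.3%, beside 2.18% and 3.27%). These pumps and the pathways below were tested in the main fit only. Whether their ABA changes at day 8 hold after scaling was not tested. Median-ratio scaling would divide the ABA libraries of day 8 by 0.846 and 0.84 and the water libraries by 1.054 and 1.035. Of 26 ATPase transcripts 3 rose and 1 fell in water at day 5 against day 0 (15.4%, beside 12.9%), and 1 rose and 3 fell with ABA at day 8 (15.4%, beside 13.3%), shares near the background. The difference between both pumps was not tested. The pyrophosphatase comp103002_c0_seq1 stood in water at 112 and 125 RPKM at day 0, 260 and 257 RPKM at day 5 and 407 and 393 RPKM at day 8. At day 5 it had 437 and 430 RPKM with ABA and 211 and 212 RPKM with NDGA, against 260 and 257 RPKM in water. At day 8 it had 260 and 265 RPKM with ABA and 202 and 209 RPKM with NDGA, against 407 and 393 RPKM in water. It was above water with ABA at day 5 (0.74 ± 0.07, adjusted p = 6.0e-05), below it at day 8 (-0.61, adjusted p = 9.1e-05), and below it with NDGA at day 8 (-0.96, adjusted p = 1.3e-05).

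Among 30 transcripts of dicarboxylate and citrate carriers, 8 rose and 3 fell with ABA at day 8. That is 36.7%, beside 13.3% of all and 18% of the described transcripts. With the stricter filter (5 RPKM or more in 2 libraries), 10852 of 28958 transcripts were called there. With NDGA 5 rose and 1 fell at each day (20%). Of all and of described transcripts, 2.03% and 3.35% were called at day 5, and 2.18% and 3.27% at day 8. These differences in share were not tested. Those that rose with NDGA are described by mitochondrial uncoupling proteins 1, 4 and 5, of which the Arabidopsis proteins 4 and 5 are known as dicarboxylate carriers. The mitochondrial uncoupling protein 5 transcript comp102680_c0_seq1 had 192 and 217 RPKM with ABA and 84.1 and 89.0 RPKM with NDGA at day 8, against 46.8 and 50.9 RPKM in water (2.04 ± 0.12, adjusted p = 8.9e-08, and 0.81, adjusted p = 0.0021). In water at day 0 it had 250 and 302 RPKM. The tonoplast dicarboxylate transporter comp106770_c1_seq3, which in Arabidopsis carries malate across the vacuolar membrane, was the transcript of the carriers that was lower with NDGA. It was singled out after its values were seen. It had 53.1 and 50.7 RPKM with NDGA and 104 and 108 RPKM with ABA at day 5, against 122 and 124 RPKM in water, and 37.9 and 37.4 RPKM with NDGA and 88.9 and 81.7 RPKM with ABA at day 8, against 75.1 and 74.5 RPKM in water. The NDGA change was -1.23 ± 0.10 (adjusted p = 7.5e-06) at day 5 and -0.97 ± 0.10 (adjusted p = 1.1e-04) at day 8, and the ABA change -0.21 (adjusted p = 0.40) and 0.19 (adjusted p = 0.26). In water it stood at 46.9 and 47.5 RPKM at day 0 and rose by 1.36 at day 5 (adjusted p = 9.6e-07), as did comp99633_c0_seq2 of NADP-malic enzyme by 1.37.

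Of the neighbouring pathways, 2 of 13 transcripts of the GABA shunt rose and 3 fell in water at day 5 against day 0. That is 38.5%, beside 12.9% of all and 19% of the described transcripts. With ABA at day 8, 4 fell (30.8%, beside 13.3% and 18%). With the stricter filter, 10228 of 28958 transcripts were called in the first comparison and 10852 in the second. These differences in share were not tested. The glutamate decarboxylase comp111659_c0_seq3, which opens this route out of 2-oxoglutarate and consumes a proton, had 236 and 220 RPKM at day 5, against 94.3 and 88.9 RPKM at day 0 (1.31, adjusted p = 1.1e-04). At day 8 it had 156 and 174 RPKM with NDGA, against 90.9 and 72.1 RPKM in water (1.02, adjusted p = 0.0038). Of 33 transcripts of the pyruvate dehydrogenase complex 4 rose in water at day 5 against day 0 (12.1%, beside 12.9%), and 1 rose and 5 fell with ABA at day 8 (18.2%, beside 13.3% of all and 18% of described transcripts). Of 31 transcripts of pyruvate kinase and pyruvate, phosphate dikinase 6 fell with ABA at day 8 (19.4%). Both shares with ABA at day 8 lie near that of the described transcripts. The 4 transcripts of NAD-dependent malic enzyme summed to 46.0 to 62.2 RPKM over the 14 libraries.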

How the data were processed

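Expression was measured by polyA RNA sequencing in 14 libraries, 2 for each of 7 groups; 14 small RNA libraries were not used. The values are RPKM on transcripts assembled de novo, made by the authors per the file headers and the labels. RPKM gave whole reads for 100% of values (tolerance 0.1), with 7356752 to 9035037 reads per library. Transcripts with 1 RPKM or more in 2 libraries (99136) were tested on log2(RPKM + 1) with limma 3.58.1 in R 4.3.3 (trended prior, no covariate), in 1 fit of all 14 libraries, with Benjamini-Hochberg adjustment. The steps were tested on simulated data. A group's 2 libraries are its replicates; 8 lines without a transcript name were left out.

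Members were found by the 8 descriptions. Named are the most abundant member of each class, in each comparison the called member of a class with the smallest adjusted p (5 RPKM or more in the higher group), and called members with an absolute log2 change of 1 or more and 10 RPKM or more in the higher group. Of the other pathway lists the member with the smallest adjusted p is named where a result turns on it. The members and lists were chosen with earlier results of these data known. Transcripts of the other pathway lists were tested in the main fit alone. Alternatives were other pseudocounts, filters, scalings, a replicate block, voom on recovered reads, summed forms, fits of the compared groups alone and each library left out.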

Additional observations from a re-analysis of the deposited data

Results flagged for a closer look

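The change with ABA at day 8 was tested against that at day 5 (limma, 8 libraries of the 4 groups in the fit of all 14), and 10 members differed, 5 upwards and 5 downwards (8.00% of 125, beside 3.69% of all transcripts tested). The difference was -2.70 for the plastid NADP-malate dehydrogenase comp110991_c0_seq1 (adjusted p = 1.0e-04), which was called upwards at day 5 and downwards at day 8. For 3 transcripts that rose with ABA at day 8 it was 2.25 for the NADP-malic enzyme comp104072_c0_seq4 (adjusted p = 0.0041), 1.37 for the plastid NADP-malic enzyme comp118237_c0_seq6 (adjusted p = 0.0015) and 2.02 for the PEP carboxykinase comp114324_c0_seq5 (adjusted p = 0.019). For the glyoxysomal citrate synthase comp110690_c0_seq9 it was 1.53 (adjusted p = 0.018). Negative differences were -0.64 for the NADP-malic enzyme comp104072_c1_seq1 (adjusted p = 0.012), -0.62 for the cytosolic malate dehydrogenase comp104763_c0_seq1 (adjusted p = 0.010), -0.71 for the isocitrate dehydrogenase comp112234_c0_seq3 (adjusted p = 0.026) and -3.07 for the low isocitrate dehydrogenase comp105727_c0_seq1 (adjusted p = 0.030), which is listed at 0 in both ABA libraries of day 8. The first 3 of these negative differences were not called after median-ratio scaling (adjusted p = 0.15, 0.18 and 0.24), under which 8 members differed upwards and 2 downwards. On leaving out 1 library these calls were lost for comp114324_c0_seq5, comp112234_c0_seq3 and comp105727_c0_seq1 with any of 6 of the 8 libraries (0.059 to 0.081, 0.060 to 0.11 and 0.085 to 0.12), for comp110690_c0_seq9 with any of 5 (0.052 to 0.082), for comp104072_c1_seq1 with any of 4 (0.051 to 0.060) and for comp104763_c0_seq1 with the first water library of day 5 (0.051). Without 1 library, 3 members differed (first water library of day 5), 4 (first water library of day 8), 5 (second ABA library of day 8) and 6 (either ABA library of day 5).

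The change with NDGA at day 8 differed from that at day 5 in 6 members, 3 in each direction (4.80%, beside 2.65% of all transcripts tested). Named among them are the glyoxysomal citrate synthase comp110690_c0_seq9 (1.82, adjusted p = 0.0072), the ATP-citrate synthase beta chain comp108453_c0_seq2 (1.68, adjusted p = 0.016) and the ALMT9 form comp106901_c0_seq6 (-1.81, adjusted p = 0.048). The second was lost on leaving out 1 of 6 libraries (0.056 to 0.076) and the last on leaving out 1 of 8 (0.089 to 0.16). Without 1 library the count was 1 to 4. Differences between days share the water libraries with the ABA differences.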

How the results depend on the processing

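Of 79 calls on the 33 named members, 79 kept their direction and side of the threshold with the stricter filter (5 RPKM), 77 with voom, 76 with a pseudocount of 0.25, 72 after quantile and 71 after median-ratio scaling, 71 with no filter, and 37 without each library in turn. The 79 of the stricter filter was nearly fixed in advance, because called members were named at 5 RPKM or more in the higher group. That filter also tests fewer transcripts and calls a larger share of them. In water at day 5 against day 0 it called 10228 of 28958, beside 12766 of 99136 in the main fit. Fitted on the compared groups alone, 16 of the 79 calls kept direction and side. With forms of a component summed 68 did and 10 lost their call. The ALMT9 form comp106901_c0_seq6 at day 5 against day 0 in water was then 0.18 instead of -1.17 (adjusted p = 0.70), in a component that a form of another protein leads. Of the 75 components 16 hold a tested form that is no member, in 3 of them described by another protein.

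Counts of called members moved as follows, with the cause not tested. The values for summed forms count called components among 75, not called members among 125. Their distance from the member counts is therefore not a measure of change. Calls over all transcripts also fell on leaving out 1 library and in the fits of the compared groups alone. In water at day 5 against day 0 (29) the compared groups alone gave 2, and leaving out 1 library 16 to 22. At day 8 against day 5 (13) voom gave 22, the compared groups alone 0, summed forms 7, and leaving out 1 library 3 to 6. At day 8 against day 0 (21) the compared groups alone gave 2, and leaving out 1 library 11 to 15. With ABA at day 5 (3) the stricter filter, the summed forms and the replicate block gave 5 each, voom 6, the compared groups alone 0, and leaving out 1 library 1 to 2. With ABA at day 8 (28) the compared groups alone gave 5, and leaving out 1 library 18 to 22. With NDGA at day 5 (1) the pseudocount, the stricter filter, the summed forms and the replicate block gave 2 each, voom 9, the compared groups alone 0, and leaving out 1 library 0 to 1. With NDGA at day 8 (4) the stricter filter gave 7, voom 9, the replicate block 8, the compared groups alone 0, and leaving out 1 library 0 to 3. For the difference of the ABA changes between days (10) the stricter filter gave 17, the compared groups alone 5, and leaving out 1 library 3 to 10. For NDGA (6) no filter gave 3, voom 13, the compared groups alone 2, and leaving out 1 library 1 to 4.

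Deviations of libraries with the same replicate number correlated weakly but positively in all 21 pairs of groups, with r of 0.050 to 0.10 and over 0.1 in 1 pair. A small part of the spread may thus be shared by libraries of the same number. The number was not taken as a pairing in the main fit. With it as a block the other counts were 31, 18 and 23 in water, 31 with ABA at day 8, and 13 and 7 for the differences between days.

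With 2 libraries a group, and 84 of 125 members below 10 RPKM, small changes of low transcripts were not detectable at this depth. A log2 change on log2(RPKM + 1) understates those of low transcripts, forms that share reads are uncertain, and the assembly gives no position in a genome.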

Other observations

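In 9 of the 125 members (7.20%, beside 3.27% of all transcripts tested) the same replicate was higher in all 7 groups. The mitochondrial malate dehydrogenase comp107114_c0_seq3, the grape-like NADP-malic enzyme comp96256_c0_seq2 and 3 others were higher in the first library, and the NADP-isocitrate dehydrogenase comp112234_c0_seq1, the cytoplasmic aconitase comp106489_c0_seq1 and 2 others in the second. In the component comp104920_c0 of cytosolic malate dehydrogenase, comp104920_c0_seq4 was higher in the first library of every group and comp104920_c0_seq1 in the second. The cause was not tested.

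The authors' deposited table lists transcripts that they found differentially expressed, grouped in expression clusters. Of these transcripts 4151 were tested here (4.19% of all tested and 6.93% of the described ones). The same table holds 15 of the 125 members (12%), and all 15 were called in at least 1 of the 7 comparisons. Both the authors' list and the calls come from the same data, so this overlap is no independent support. In the authors' deposited table both PEP carboxykinases that were higher with ABA at day 8 stand in cluster 2 with the plastid NADP-malic enzyme forms comp118237_c0_seq6 and comp118237_c0_seq7, and comp104072_c0_seq4, comp104072_c0_seq1 and comp118237_c0_seq4 stand together in cluster 7.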
